A study of Mus musculus with 5 samples.

Results

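The integrated stress response is described here through 10 mouse genes, 5 of them transcription regulators (Atf4, Atf5, Ddit3, Atf3 and Nupr1) and 5 of them effectors (Trib3, Ppp1r15a, Chac1, Sesn2 and Ddit4). The genes were chosen by name as the factors and regulatory effectors of the Atf4 pathway, and they are 10 of 54838 genes listed in the deposited files. Each was matched by its Ensembl identifier to GENCODE M21, and all 10 were among the 14887 genes with enough reads to be tested.

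The cells were N2a, a line derived from a mouse neuroblastoma, and total RNA was sequenced. They had been given either a control siRNA (siCtrl, 2 libraries) or one directed at Ewsr1, which encodes an RNA-binding protein (siEwsr1, 3 libraries). Both groups received 2 rounds of Lipofectamine RNAiMAX transfection of 50000 cells and were harvested 24 hours after the last. The labels name no further genotype or agent and give the siRNA concentration as 100 µM for both groups. Whether each library had its own culture is not stated, so the p-values rest on a spread between libraries that may be technical.

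In the integrated stress response, kinases that sense amino acid shortage, misfolded proteins in the endoplasmic reticulum, viral RNA or haem shortage phosphorylate the translation factor eIF2. General protein synthesis then falls, while the messages of Atf4 and a few other genes are translated better through upstream reading frames. Atf4 in turn activates genes for amino acid supply, redox balance and, with prolonged stress, cell death. RNA-seq reads the abundance of these messages and not their translation or the phosphorylation of eIF2.

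Between 15045774 and 21339459 reads were counted to genes per library. Levels are given as RPKM, reads per kilobase of exon scaled to the number of counted reads, after the lost decimal points of the deposited values had been restored from whole-read arithmetic. Ewsr1, the targeted gene, was at 71.7 and 72.3 RPKM in siCtrl and at 35.7, 36.3 and 37.6 RPKM in siEwsr1. It fell by 0.96 ± 0.07 (SE) on the log2 scale (limma, Benjamini-Hochberg adjusted p = 0.0196). With either siCtrl library left out that call was lost (limma adjusted p = 0.271 without replicate 1 and 0.272 without replicate 2), as it was with siEwsr1 replicate 1 left out (limma adjusted p = 0.118). Of the neuroblast and neuron markers, 11 had a mean level of 1 RPKM or more, and the summed level of the list was 932 and 950 RPKM in siCtrl and 997 to 1117 RPKM in siEwsr1. The summed level of 10 fibroblast and mural cell markers was 37.0 and 36.8 RPKM in siCtrl and 24.7, 24.8 and 31.4 RPKM in siEwsr1, with Col3a1 and Lum at 0. Most of that sum was Fbln1, at 33.5 and 33.5 RPKM in siCtrl and 23.4, 23.5 and 30.01 RPKM in siEwsr1, which did not pass (limma adjusted p = 0.148). Acta2 fell, from a mean of 2.76 RPKM to one of 0.857 RPKM (limma adjusted p = 0.025), and the part of these markers in the results was not tested. The lists for glia, leukocytes, and epithelium with endothelium each summed to at most 1.46 RPKM in any library. On the first principal component of all tested genes, which held 45.3% of the variance, siEwsr1 replicate 3 lay at 0.04, between the siCtrl libraries (-21.2 and -28.8) and the other siEwsr1 libraries (16.4 and 33.5).

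All 10 stress response genes had a lower mean level in siEwsr1 than in siCtrl, and for each of them every siEwsr1 library lay below both siCtrl libraries. Differences between the group means ran from -31.1% for Atf4 to -64.5% for Trib3. With adjustment over all tested genes, 4 of the 10 fell (Trib3, Nupr1, Atf5 and Sesn2), none rose, and 6 did not pass. Of all tested genes, 1.0% were called lower and 0.786% higher. Libraries of the 2 groups were separated in the downward direction in 21.3% of all tested genes. The 6 genes that did not pass had adjusted p between 0.0511 and 0.0822 (limma), and all 10 had an unadjusted p under 0.05, as did 1559 genes in the downward and 1460 in the upward direction. No member was called higher by limma-voom on the recovered reads either, and none had an unadjusted p under 0.05 in that direction. Both follow from the fold changes of all 10 genes being below 0.

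The count of 4 depended on how limma shared the variance between genes and on single libraries. With the variance trend fitted on each gene's mean reads, an alternative chosen after seeing the data, all 10 genes were called lower, with adjusted p from 0.00197 to 0.0347, and 2.81% of all tested genes were called lower and 2.43% higher. Limma-voom also called all 10 lower, with 3.14% of all tested genes lower and 2.42% higher. Leaving out siEwsr1 replicate 3 also gave 10 calls, while 6.66% of all tested genes were then called lower and 6.97% higher. Leaving out siEwsr1 replicate 2 gave 3 (Ddit3, Nupr1 and Trib3), with 0.469% of all tested genes called lower and 0.352% higher. Leaving out siEwsr1 replicate 1 gave 0, and 0 of all tested genes were then called in either direction. All 10 genes were still at an unadjusted p under 0.05 in that fit. Without siCtrl replicate 1 or 2, which left a single siCtrl library, the median log2 fold change of the 10 genes was -0.80 or -0.76. An exact two-sided permutation of the 5 libraries gave p = 0.1 for each gene, the smallest p that 2 against 3 libraries allow. In bulk RNA, fewer cells that express a gene and less of its RNA per cell cannot be told apart.

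**Figure D1:**
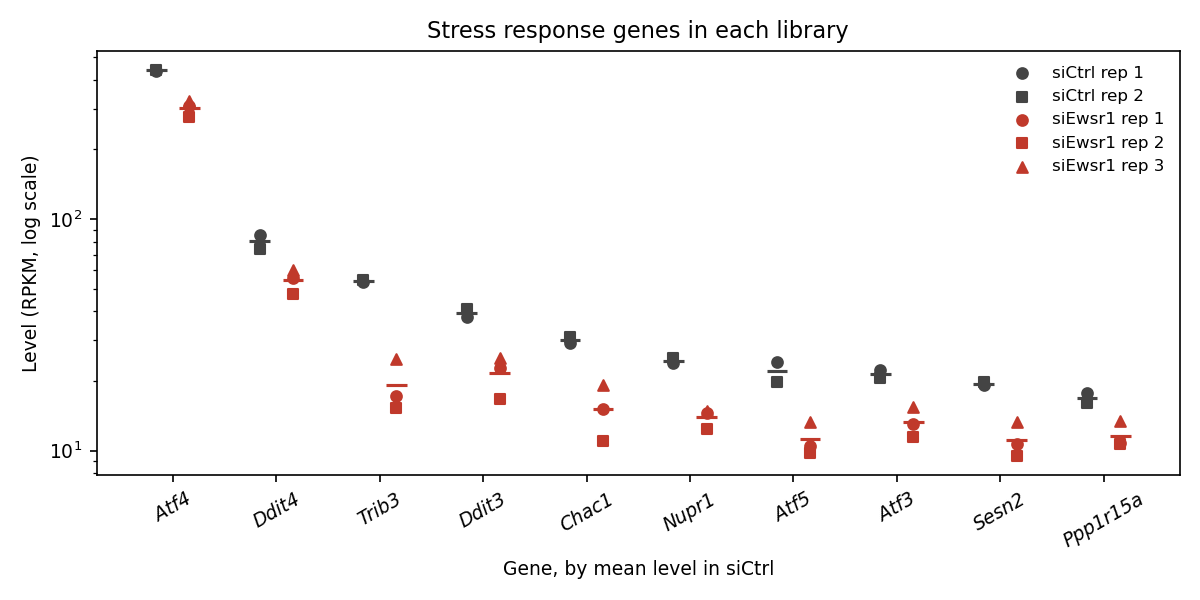
Level of each of the 10 genes in each library, in RPKM on a log axis, ordered by mean level in siCtrl. Points are libraries (grey siCtrl, n = 2; red siEwsr1, n = 3) and short bars are group means; for every gene the red points lie below the grey ones.

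Atf4 binds DNA as a bZIP dimer, often with a C/EBP protein, at a composite element whose core is commonly written TTGCATCA, while CREB and ATF dimers bind TGACGTCA. RefSeq promoters (build GRCm38.p6, from 250 bases before the annotated start to 50 after it) were found for all 10 genes and searched on both strands for TTGCATCA, for the looser TTNCATCA, which includes it, and for TGACGTCA. TTGCATCA was present in the promoters of Atf3, Chac1 and Nupr1, against 0.895% of 32851 promoters of this length. Trib3 held the looser form near its start, and 3.97% of all promoters held TTNCATCA. Ppp1r15a held TGACGTCA, against 1.79% of promoters. These stretches are shown because they carry the matched letters, in capitals, for the genes whose levels follow. Each is written 5′ to 3′ on the strand of its gene, and a match is a description of letters and not of a bound site.
Atf3, chr1:191183410-191183469, minus strand: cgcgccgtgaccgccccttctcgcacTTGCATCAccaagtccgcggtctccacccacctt
Chac1, chr2:119351023-119351082, plus strand: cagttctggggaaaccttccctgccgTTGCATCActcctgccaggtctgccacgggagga
Nupr1, chr7:126625547-126625606, minus strand: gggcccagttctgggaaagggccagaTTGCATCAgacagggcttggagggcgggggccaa
Trib3, chr2:152344028-152344057, minus strand: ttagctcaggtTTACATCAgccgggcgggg
Ppp1r15a, chr7:45526269-45526306, minus strand: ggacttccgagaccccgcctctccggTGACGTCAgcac
Counted from the RefSeq start, the match began 110 bases before it in Atf3 and Nupr1, 193 bases before it in Chac1 and 12 bases before it in Ppp1r15a, and 14 bases after it in Trib3. The RefSeq start need not be the outer end of the GENCODE gene given below: for Trib3 it is chr2:152344060, and from the GENCODE end at 152344032 the match began 14 bases before. For Atf3 and Nupr1 the match began 34596 and 5281 bases after the GENCODE start, so it lies within the gene spans given below. In Chac1 it began 180 bases before the GENCODE start. No match of these letters was found in the same window of Atf4, Atf5, Ddit3, Sesn2 or Ddit4.

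Atf4 (ENSMUSG00000042406, chr15:80255184-80257541, plus strand), the bZIP factor at the centre of the pathway, was the most abundant of the 10 genes. The siCtrl libraries held 436 and 440 RPKM, and those of siEwsr1 held 307, 276 and 324 RPKM. The siCtrl libraries differed little and every siEwsr1 library lay below them. Its mean was 438 ± 2.5 RPKM in siCtrl (SD, n = 2) against 302 ± 24.4 RPKM in siEwsr1 (SD, n = 3). The log2 fold change was -0.52 ± 0.09 (SE), which did not pass (limma adjusted p = 0.0511).

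Atf5 (chr7:44812256-44816658, minus strand), a relative of Atf4 whose message is also translated better when eIF2 is phosphorylated, was at 24.3 and 19.8 RPKM in siCtrl. In siEwsr1 it was at 10.5, 9.73 and 13.3 RPKM. The siCtrl libraries stood further apart for Atf5 than for any other of the 10 genes, by 0.30 on the log2 scale, and still did not overlap with siEwsr1. Atf5 fell, with a log2 fold change of -0.96 ± 0.15 (SE, limma adjusted p = 0.0403). It shares 82 exonic bases with each of Nup62 and Il4i1 on the opposite strand.

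Ddit3 (chr10:127290774-127296288, plus strand) encodes Chop, a C/EBP-family factor downstream of Atf4 that is linked to cell death in prolonged stress. It was at 37.9 and 40.7 RPKM in siCtrl and at 22.7, 16.7 and 25.2 RPKM in siEwsr1. All siEwsr1 libraries were lower, replicate 2 the most. A log2 fold change of -0.87 ± 0.16 (SE) did not pass (limma adjusted p = 0.0585). Ddit3 shares 68 exonic bases with Mars and 13 with Gm4189, both on the opposite strand.

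Atf3 (chr1:191170296-191218039, minus strand), a bZIP factor induced by Atf4 and by other stress signals, was at 22.3 and 20.6 RPKM in siCtrl and at 13.0, 11.4 and 15.4 RPKM in siEwsr1. The groups did not overlap. Its log2 fold change was -0.68 ± 0.13 (SE), with limma adjusted p = 0.0559, and did not pass.

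Nupr1 (chr7:126623249-126630861, minus strand), a small nuclear protein gene induced by many stresses, was at 23.9 and 25.0 RPKM in siCtrl and at 14.5, 12.4 and 14.9 RPKM in siEwsr1. Replicates 1 and 3 of siEwsr1 nearly coincided, and replicate 2 was the lowest. Nupr1 fell, with a log2 fold change of -0.80 ± 0.10 (SE, limma adjusted p = 0.026).

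Trib3 (chr2:152337422-152344032, minus strand) showed the largest change of the 10 genes. It encodes a pseudokinase that is induced by Atf4 and Chop and in turn restrains Atf4. Its level was 53.5 and 54.6 RPKM in siCtrl and 17.3, 15.2 and 25.0 RPKM in siEwsr1. The siCtrl libraries nearly coincided, and replicate 3 was the highest of the siEwsr1 libraries while still far below them. The siCtrl mean was 54.0 ± 0.79 RPKM (SD, n = 2) and the siEwsr1 mean 19.2 ± 5.15 RPKM (SD, n = 3). Trib3 fell, with a log2 fold change of -1.51 ± 0.19 (SE, limma adjusted p = 0.026). Of the tested genes, 39 had a lower log2 fold change than Trib3, which is 0.262% of them.

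Ppp1r15a (chr7:45522916-45526268, minus strand) encodes Gadd34, which directs protein phosphatase 1 to eIF2 and so ends the response. It was at 17.7 and 16.1 RPKM in siCtrl and at 10.8, 10.6 and 13.4 RPKM in siEwsr1. Replicate 3 came nearest to siCtrl without reaching it. With a log2 fold change of -0.53 ± 0.12 (SE) it did not pass, and it had the highest adjusted p of the 10 genes (0.0822, limma). It shares 12 exonic bases with Tulp2 on the opposite strand.

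Chac1 (chr2:119351229-119354381, plus strand) encodes an enzyme that breaks down glutathione and is a target of Atf4. It was at 29.1 and 30.9 RPKM in siCtrl and at 15.2, 11.02 and 19.2 RPKM in siEwsr1. Among the 10 genes it had the second most negative fold change and the widest error. That log2 fold change of -1.003 ± 0.21 (SE) did not pass (limma adjusted p = 0.0674).

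Sesn2 and Ddit4 both restrain mTORC1, the kinase complex that couples nutrients to growth: Sesn2 as a leucine sensor and Ddit4, also called Redd1, through the Tsc1 and Tsc2 complex. Sesn2 (chr4:132492032-132510501, minus strand) was at 19.2 and 19.8 RPKM in siCtrl and at 10.7, 9.47 and 13.3 RPKM in siEwsr1. It fell, with a log2 fold change of -0.80 ± 0.14 (SE, limma adjusted p = 0.0465). That call was lost with library totals as scaling (limma adjusted p = 0.0553) and with genes of annotated exonic length alone (limma adjusted p = 0.0526). Of 16 alternatives that kept all libraries, these among them, 6 lost the call, as did leaving out siEwsr1 replicate 1 or 2. Leaving out either siCtrl library left a single one, too few to rest a call on. Over all 5 fits with a library left out, the log2 fold change of Sesn2 lay between -0.91 and -0.68. Ddit4 (chr10:59949669-59951834, minus strand) was at 85.5 and 74.5 RPKM in siCtrl and at 55.6, 47.5 and 60.1 RPKM in siEwsr1. Its siCtrl libraries differed by 0.21 on the log2 scale and remained above all siEwsr1 libraries. The log2 fold change of Ddit4, -0.54 ± 0.12 (SE), did not pass (limma adjusted p = 0.0781).

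**Figure D2:**
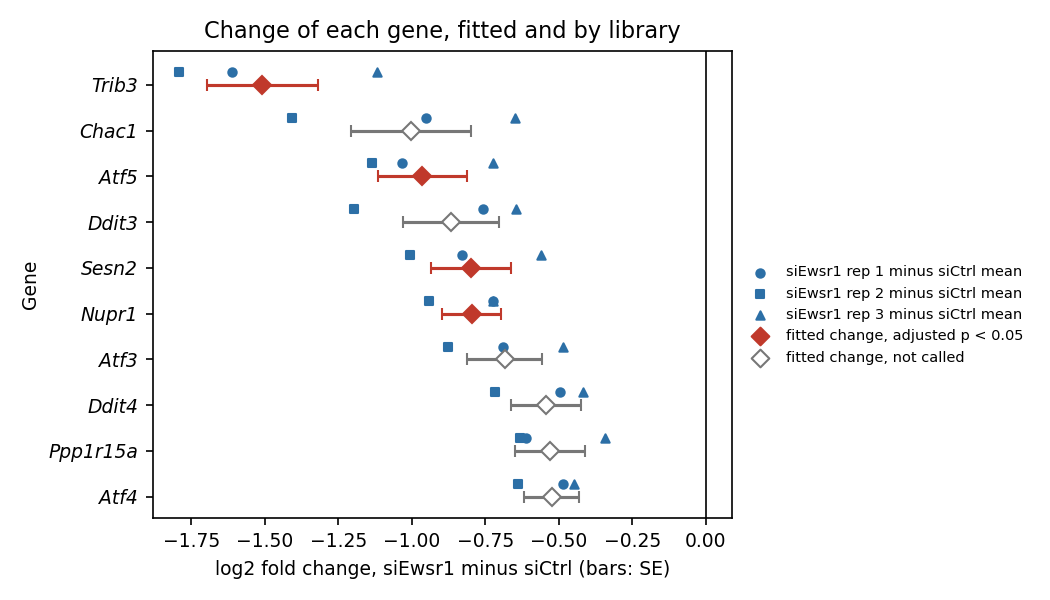
Log2 fold change of each of the 10 genes, siEwsr1 minus siCtrl, ordered by size. Diamonds with bars are the limma estimate ± SE (red where adjusted p is under 0.05, white where not) and blue points are each siEwsr1 library minus the siCtrl mean; all points lie below 0, from -0.34 for Ppp1r15a in replicate 3 to -1.79 for Trib3 in replicate 2.

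The siEwsr1 libraries kept the same order for every member. In unscaled RPKM, replicate 2 was the lowest, replicate 1 was intermediate and replicate 3 the highest in all 10 genes. That order was shown by 28.6% of all tested genes and by 29.7% of the other genes called lower. With the trimmed-mean scaling of the fit all 10 genes kept the order, against 25.5% and 21.4%. The median over the 10 genes of the log2 difference from the siCtrl mean was -0.97 in replicate 2, -0.74 in replicate 1 and -0.60 in replicate 3. Between the siCtrl libraries the median difference was 0.01. The principal component given above placed the siEwsr1 libraries in the same order, whereas Ewsr1 itself was lowest in replicate 1. Whether the order of the libraries reflects a shared source was not tested.

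In siCtrl the level order, per exonic length, was Atf4, Ddit4, Trib3, Ddit3, Chac1, Nupr1, Atf5, Atf3, Sesn2 and Ppp1r15a. Atf4 was 5.48 times as abundant as Ddit4, the next gene. Neighbours were separated over the siCtrl libraries except Nupr1 with Atf5 and Atf5 with Atf3. In siEwsr1 only Atf4 and Ddit4, and Ddit4 and Trib3, did not overlap as neighbours of that order.

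To set the other genes against the Atf4 message itself, each gene was divided by Atf4 within the same library. For 6 of 9 genes (Trib3, Chac1, Atf5, Ddit3, Sesn2 and Nupr1) the ratio was lower in every siEwsr1 library than in both siCtrl libraries. Trib3 shifted the most, by -1.13, -1.16 and -0.67 on the log2 scale from the siCtrl mean. Nupr1 shifted by -0.24, -0.31 and -0.28, and was the most even. For Atf3, Ppp1r15a and Ddit4 the ratios of the groups overlapped. The mean shift of Ppp1r15a was -0.01 ± 0.12 (SD, n = 3) and that of Ddit4 was -0.02 ± 0.05 (SD, n = 3). These ratios share Atf4 as denominator and are given as a description. The share of all tested genes whose ratio to Atf4 was separated in this way was not computed. The ratio of Ewsr1 to Atf4 was also lower in every siEwsr1 library than in both siCtrl libraries, with a mean shift of -0.44.

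**Figure D3:**
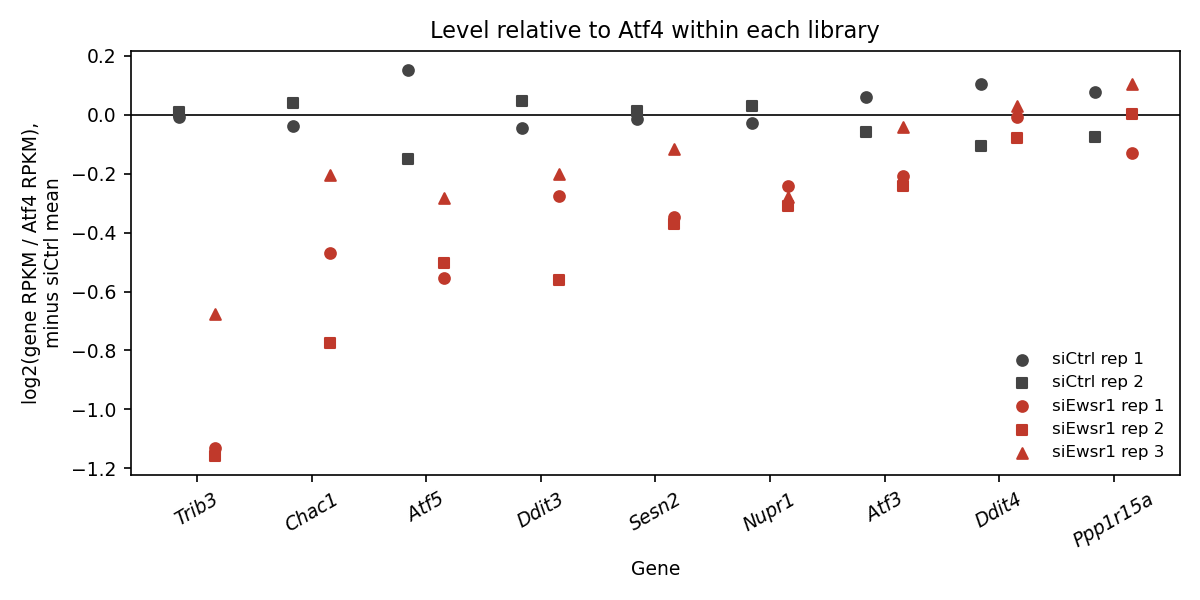
Log2 ratio of each gene to Atf4 within a library, minus the siCtrl mean, ordered by mean shift in siEwsr1. Points are libraries (grey siCtrl, n = 2; red siEwsr1, n = 3); the red points of Trib3 lie between -1.16 and -0.67 and those of Ddit4 and Ppp1r15a lie around 0.

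The list for eIF2 held 22 tested genes: kinases and their regulators, subunits of eIF2, eIF2B and the eIF2 phosphatases, and the initiation factors Eif2a, Eif2d, Denr and Mcts1. None was called in either direction (limma). At an unadjusted p under 0.05, 1 was lower and 4 were higher, where 1559 and 1460 of the 14887 tested genes were. Limma-voom called 0 lower and 1 higher, which was Mcts1, named after its values were seen. As a list they had a median log2 fold change of 0.06, against -0.01 over all tested genes. Of its most abundant members, Eif2s1, the eIF2 subunit that is phosphorylated, had means of 86.3 ± 0.91 RPKM (SD, n = 2) in siCtrl and 90.9 ± 9.64 RPKM (SD, n = 3) in siEwsr1. Its log2 fold change was 0.08 ± 0.12 (SE). Eif2s2, another eIF2 subunit, was at -0.01 ± 0.14 on the same scale, Impact, an inhibitor of the kinase Gcn2, at 0.04 ± 0.09, and Ppp1ca, a catalytic subunit of protein phosphatase 1, at -0.25 ± 0.13.

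None of 7 tested paralogs of the effectors was called by limma in the fit used throughout or by limma-voom. At an unadjusted p under 0.05, 3 were higher and 0 lower, where 1460 and 1559 of the 14887 tested genes were. The median log2 fold change of the paralogs was 0.30, against -0.80 over the 10 genes. Chac2, the paralog of Chac1, was at 15.6 and 14.0 RPKM in siCtrl and at 24.3, 23.1 and 18.5 RPKM in siEwsr1. Every siEwsr1 library was above both siCtrl libraries, with a log2 fold change of 0.58 ± 0.14 (SE, limma adjusted p = 0.1), which did not pass. With the variance trend on mean reads Chac2 was called higher. A replicate block, scaled reads not divided by exonic length and leaving out siEwsr1 replicate 3 each gave 1 call higher in the list. Sesn1, the paralog of Sesn2, had a log2 fold change of 0.33 ± 0.10 and did not pass. Ppp1r15b, the paralog of Ppp1r15a that is made without stress, was at 0.01 ± 0.08, and Trib2 at 0.02 ± 0.09.

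Of 30 tested genes of amino acid supply known as Atf4 targets, 6 fell, against 1.0% of all tested genes, and none rose (limma; 1 had an unadjusted p under 0.05 upward, and limma-voom called 0 higher). Their median log2 fold change was -0.29, and 28 of the 30 values were below 0, 22 of them without passing, where 51.7% of all tested genes had a value below 0. The largest was that of Cth, which makes cysteine, at 30.4 and 28.4 RPKM in siCtrl and 15.5, 12.4 and 15.6 RPKM in siEwsr1 (log2 fold change -1.01 ± 0.12, SE; limma adjusted p = 0.026). The others that fell were Slc7a11, the cystine transporter (-0.79 ± 0.12), Aldh1l2 of mitochondrial folate metabolism (-0.77 ± 0.09), Slc1a4, a neutral amino acid transporter (-0.72 ± 0.08), Slc7a3, a cationic amino acid transporter (-0.59 ± 0.09) and Psph of serine synthesis (-0.59 ± 0.08). Asns, asparagine synthetase and the most abundant of the list, was at 519 and 533 RPKM in siCtrl and at 424, 385 and 410 RPKM in siEwsr1. It did not pass, with a log2 fold change of -0.36 ± 0.09 (SE, limma adjusted p = 0.0953). Gars (-0.21 ± 0.08) and Nars (-0.26 ± 0.08), which charge transfer RNA, and Shmt2 (-0.27 ± 0.15) of one-carbon metabolism did not pass either.

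Among 23 other tested targets of Atf4 and Chop, the median was -0.36, and at an unadjusted p under 0.05, 13 were lower and 2 higher. Over all 14887 tested genes, 1559 were lower and 1460 higher at that threshold. In this list 3 fell and none rose, against 1.0% of all tested genes called lower and 0.786% higher. They were Hmox1, haem oxygenase (-0.84 ± 0.12), Eif4ebp1, a repressor of cap-dependent translation (-0.78 ± 0.09), and Herpud1 of endoplasmic reticulum protein degradation (-0.57 ± 0.08). Sqstm1 (-0.51 ± 0.10), Vegfa (-0.51 ± 0.10) and Ero1l (-0.39 ± 0.11) were the most abundant of those that did not pass, beside Nars, which stands in both lists. Of 23 tested bZIP partners and relatives, 2 fell and none rose, to be set beside the same shares of all tested genes. At an unadjusted p under 0.05, 7 were lower and 2 higher, and the median was -0.26. Limma-voom called 0 higher in either list. Xbp1, the factor of the Ire1 branch of the unfolded protein response, was at 75.7 and 75.0 RPKM in siCtrl and at 49.7, 49.1 and 51.9 RPKM in siEwsr1, a log2 fold change of -0.57 ± 0.07 (SE, limma adjusted p = 0.026). Nfe2l1, a factor for proteasome genes, fell by 0.68 ± 0.08 on the log2 scale. Crebzf (-0.38 ± 0.11), Junb (-0.26 ± 0.16), Mafg (-0.26 ± 0.11) and Atf1 (0.25 ± 0.09) did not pass. Over the 6 lists with the 10 genes left out, 11 genes fell, a count that became 0 when either siCtrl library or siEwsr1 replicate 1 was left out, 5 when siEwsr1 replicate 2 was, and 39 when siEwsr1 replicate 3 was. The lists were chosen with earlier results of these libraries known.

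Of 26 other tested regulators of mTORC1, the complex restrained by Sesn2 and Ddit4, none fell and 2 rose. Over all tested genes, 1.0% were called lower and 0.786% higher. The median of the list on the log2 scale was 0.04. At an unadjusted p under 0.05, 1 was lower and 5 were higher, where 1559 and 1460 of the 14887 tested genes were. Limma-voom called 0 lower and 2 higher. Lamtor3, part of the lysosomal anchor of mTORC1, was at 8.11 and 8.89 RPKM in siCtrl and at 14.4, 12.1 and 13.1 RPKM in siEwsr1, a log2 fold change of 0.64 ± 0.11 (SE, limma adjusted p = 0.0432). Deptor, an inhibitor of mTOR, rose by 0.96 ± 0.17 on the log2 scale from a low mean of 1.14 RPKM in siCtrl (limma adjusted p = 0.0495). Leaving out either siCtrl library, or siEwsr1 replicate 1 or 2, left 0 of the 26 genes called higher. Lamtor5 (-0.06 ± 0.09), Sec13 (-0.25 ± 0.12), Seh1l (-0.01 ± 0.10) and Rragd (-0.23 ± 0.08) were the most abundant and did not pass.

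**Figure D4:**
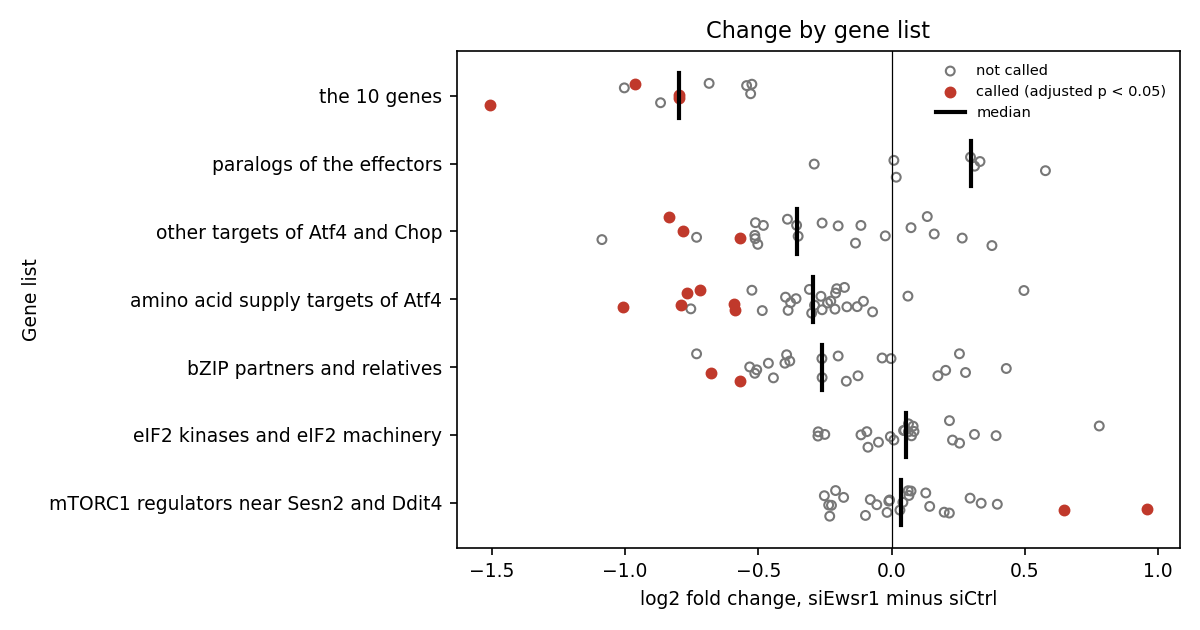
Log2 fold change of every tested gene in the 10-gene set and in 6 related lists, siEwsr1 minus siCtrl. Points are genes (red where limma's adjusted p is under 0.05), spread vertically at random, and black bars are medians; the median is -0.80 for the 10 genes, between -0.36 and -0.26 for targets and bZIP relatives, and 0.04 to 0.30 for the eIF2, mTORC1 and paralog lists.

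The genes nearest to Atf4 in profile, by the root-mean-square difference over the 5 libraries of log2 level minus the siCtrl mean, were Fzd4 (0.016), Szrd1 (0.030), Sqstm1 (0.031), Olfml3 (0.033) and Ciart (0.034). No other member was among the 5. Nearest to Trib3 were Gm35167 (0.078), Gm37521 (0.12), Gm10300 (0.16), Dglucy (0.16) and Gm13689 (0.18). The smallest difference from Trib3 was thus larger than all 5 of the differences from Atf4.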

How the data were processed

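RNA was sequenced from stranded, ribosomal-RNA-depleted libraries made from 2 µg of total RNA, per the labels' protocols. The submitters' processing notes name STAR 2.5.2b, featureCounts 1.5.1, edgeR and GRCm38; for the strand setting and annotation release, nothing is given in the sources used here. The deposited values behave as RPKM computed by the authors over annotated exons, and those of 1 or more had lost the decimal point. Here each decimal position was restored so that value, exonic length (GENCODE M21) and library total gave whole reads (tolerance 1e-06); 98.5% to 98.6% of intact values were whole. Where several positions did, the lowest was preferred unless a higher one made the libraries more alike, with group labels ignored, so very large changes may be dropped or misread. Such a higher position was used for 5 of the 10 genes (Atf4, Trib3, Chac1, Atf3 and Nupr1). The restored reads summed to within 0.0682% of each library total. The fit tested log2(RPKM + 0.1) with limma 3.58.1 (R 4.3.3; variance trend, robust moderation, trimmed-mean scaling) over genes that reached 10 reads, scaled to the median library, in 2 or more libraries. P-values were two-sided and adjusted by Benjamini-Hochberg over all tested genes, with calls under 0.05, and fold changes on this scale understate changes of low genes. Printed RPKM values are unscaled. The fewest reads behind a value of the 10 genes was 314 and the most 17964, a counting error of 5.64% at most. Recovered read counts entered the scaling and limma-voom. The method was also run on simulated reads, whose outcome is not given here. These were made from genes already restored and under the same assumptions, so they cannot show how often real values were dropped or misread. Named were the 10 genes, Ewsr1, called genes of 6 related lists (up to 6 per direction), up to 4 abundant uncalled genes per list, and the 5 nearest profiles of Atf4 and Trib3; other named genes (markers and overlapping genes) give context. The genes and lists were chosen with earlier results of these data known. One marker is not reported here.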

Additional observations from a re-analysis of the deposited data

How the results depend on the processing

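Under 21 alternatives, 5 of them chosen after seeing the data, all 205 fold changes of the 10 genes were below 0. This sign was largely fixed in advance, because every siEwsr1 library lay below both siCtrl libraries for each gene. A further 5 values could not be had because those genes needed a higher decimal position. The number called lower of the 10 genes, of the related lists with these genes left out, and of all genes was 4, 11 and 149, with 2 list genes and 117 of all genes higher. With no filter on low values, without variance trend and robust moderation, or with robust moderation but no trend, each of these counts was 0, and the log2 fold change of Ewsr1, -0.96, did not pass. With a filter at 50 reads, counts lower were 10, 17 and 334, and 270 genes were higher. Limma-voom gave 10, 21 and 467, with 360 higher. The variance trend on mean reads gave 10, 18 and 418, with 4 list genes and 362 of all genes higher. Log2 of reads with trimmed-mean scaling, but not divided by exonic length, gave 10, 21 and 454, with 4 and 401 higher. Using the lowest decimal position alone gave 1, 5 and 72, with 0 list genes and 54 of all genes higher. Restoring decimals with a narrower assumed spread, the value used first, gave 4, 11 and 147. Library totals, or a trend without robust moderation, left 1 list gene higher. Library totals, and annotated exonic length alone, left 3 of the 10 genes called, without Sesn2. Leaving out single libraries moved the count of the 10 genes between 0 and 10, of the lists between 0 and 39 lower and 0 and 9 higher, and of all genes between 0 and 968 lower and 0 and 1013 higher; Ewsr1 stayed between -0.97 and -0.94. A replicate block gave 8 of the 10 genes called lower, 16 list genes and 203 of all genes lower, and 182 higher. Deviations of same-numbered libraries correlated at 0.03 and -0.12, so the numbers were not taken to pair the libraries. Where counts changed, the cause was not tested. Limits are the small groups of 2 and 3 libraries, a restoration of the decimal point that assumes libraries to be alike, and exons shared with genes on the other strand (Ddit3, Atf5 and Ppp1r15a), whose reads cannot be told apart if strand was not used in counting.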
